A study of Mus musculus with 2 samples.

Results

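The genes described here form the unfolded protein and ATF4 response: the sensors of endoplasmic reticulum stress, the transcription factors they switch on, the enzymes that fold or destroy secretory proteins, and targets of the factor ATF4. They were chosen as a list of 37 gene symbols, and all 37 were found among the 24319 rows of the deposited lists. Expression was measured by RNA sequencing in lymphatic endothelial cells (LECs) labelled as coming from skin of C57BL/6 mouse embryos at E15.5 (embryonic day). There were 2 libraries, 1 labelled wild type (control) and 1 labelled Dot1l knockout. Dot1l encodes the enzyme that methylates lysine 79 of histone H3, and the extraction protocol writes the mutant as Dot1lΔEC, a deletion in endothelium. No source used here gives the Cre driver or the deleted exons. For either library RNA was pooled over 2 to 3 biological replicates, so nothing measures the spread between embryos. The labels also carry a protocol for cultured dermal LECs, and do not state whether the sequenced cells had been cultured.

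Proteins destined for secretion or for membranes fold inside the endoplasmic reticulum. When unfolded chains build up there, the sensor IRE1 (Ern1) splices the mRNA of Xbp1, PERK (Eif2ak3) phosphorylates the initiation factor eIF2 and so favours translation of Atf4, and ATF6 is cut in the Golgi to release a transcription factor. XBP1 and ATF6 raise chaperones and the machinery of endoplasmic reticulum-associated degradation, while ATF4 raises genes for amino acid supply and, under lasting stress, Ddit3 (CHOP). The eIF2 branch also responds to amino acid shortage, haem shortage and viral RNA, so that it is known as the integrated stress response. Splicing, phosphorylation and cleavage are not seen in gene-level values.

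Short DNA elements in the promoters link these genes to the factors. The endoplasmic reticulum stress element (ERSE), bound by ATF6 and XBP1 with NF-Y, was searched as CCAAT and CCACG with 9 bases between them, and its second form (ERSE-II) as ATTGG and CCACG with 1 base between them. The C/EBP-ATF response element (CARE, a site of ATF4 dimers) was searched as TGATGNAA and the XBP1 core element (UPRE) as TGACGTGG. The cyclic AMP response element (CRE) was searched as TGACGTCA. All were searched on both strands and as exact letters. The windows ran from 250 bases before to 50 after each annotated start, from RefSeq on GRCm38.p6, and 33 of the 37 genes had an entry. Atf6, Derl1, Hyou1 and Manf had none. The 33 genes had 37 windows. Their shares below are per gene, with a match in any window counted, while the shares beside them are per window. An exact ERSE lay in 6 of the 33 genes (18.2%), against 39 of all 32851 promoter windows (0.119%). The corresponding figures were 1 of 33 and 0.0365% for ERSE-II, 4 of 33 (12.1%) and 3.97% for CARE, 1 of 33 and 0.676% for UPRE, and 1 of 33 and 1.79% for CRE. UPRE holds the letters of the CCACG end of an ERSE on its other strand, so these matches can overlap, although none did among these genes. Such matches describe letters and not binding.

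The 6 genes with an exact ERSE are shown first because they belong to 2 roles, folding and degradation, whose levels are compared below. Each sequence is written 5′ to 3′ on the strand of its gene, with the element in capitals. An element on the opposite strand reads CGTGG before ATTGG.
Calr, chr8:84847055-84847114, reverse strand: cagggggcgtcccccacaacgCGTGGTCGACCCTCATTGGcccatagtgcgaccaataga
Canx, chr11:50325780-50325839, reverse strand: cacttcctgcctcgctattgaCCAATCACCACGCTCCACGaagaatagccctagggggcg
Pdia6, chr12:17266470-17266529, forward strand: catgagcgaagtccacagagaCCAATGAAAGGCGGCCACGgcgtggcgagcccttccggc
Creld2, chr15:88819499-88819558, forward strand: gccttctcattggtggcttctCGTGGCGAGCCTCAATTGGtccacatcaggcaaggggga
Syvn1, chr19:6046511-6046570, forward strand: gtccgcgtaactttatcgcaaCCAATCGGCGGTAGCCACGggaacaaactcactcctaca
Derl3, chr10:75893221-75893280, forward strand: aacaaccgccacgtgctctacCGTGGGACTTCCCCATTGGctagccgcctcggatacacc
In 5 of them the element ended between 80 and 144 bases before the start. In Syvn1 it was nearest, at 44 to 26 bases before the start.

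Herpud1 alone among the matched genes carried elements of both branches, and is shown over 120 bases with CARE first and ERSE-II second, both in capitals.
Herpud1, chr8:94386299-94386418, forward strand: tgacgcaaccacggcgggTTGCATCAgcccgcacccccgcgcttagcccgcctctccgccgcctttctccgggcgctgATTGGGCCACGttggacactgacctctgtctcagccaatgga
The other ATF4-type elements, in 3 genes, follow, with the CARE in capitals (TTNCATCA on the opposite strand). The element of Trib3 lies 15 to 22 bases after the annotated start, and a shorter stretch is printed.
Asns, chr6:7693210-7693269, reverse strand: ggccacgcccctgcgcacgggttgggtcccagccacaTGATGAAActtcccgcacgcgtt
Chac1, chr2:119351023-119351082, forward strand: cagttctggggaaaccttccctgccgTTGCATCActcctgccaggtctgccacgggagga
Trib3, chr2:152344028-152344057, reverse strand: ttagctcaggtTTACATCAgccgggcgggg
Ppp1r15a had a CRE just before its start, in capitals.
Ppp1r15a, chr7:45526269-45526328, reverse strand: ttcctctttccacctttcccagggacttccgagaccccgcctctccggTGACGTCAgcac
Vegfa had a UPRE match in 1 of its 2 windows, 212 to 205 bases before that start. The bases around this match read in frame as protein-coding sequence of Vegfa itself. The match is counted by its letters only, and is not taken as a promoter element. No searched element was found in the windows of 21 genes, among them Xbp1, Atf4, Ddit3, Ero1l and Sdf2l1.

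**Figure D1:**
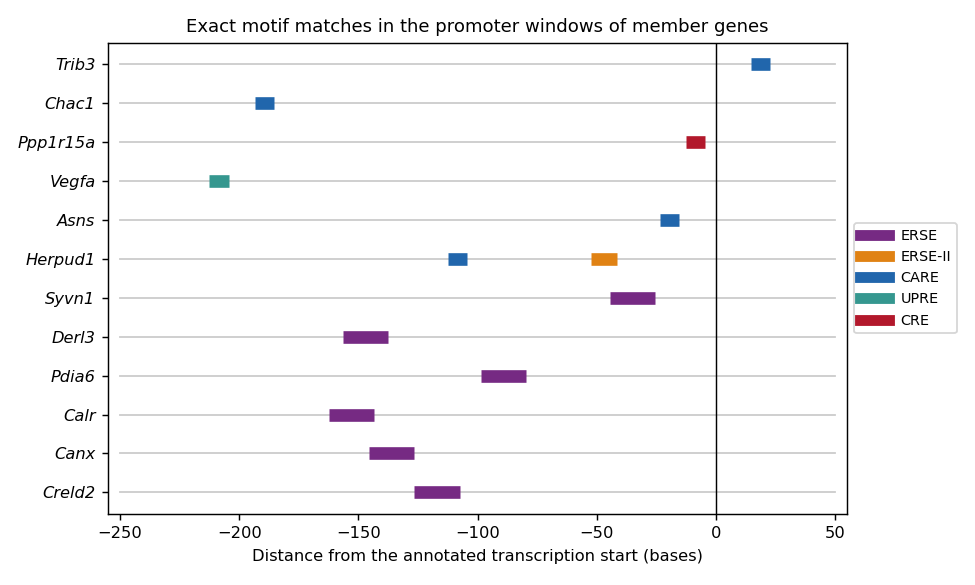
Exact matches to 5 promoter elements in the windows of the 12 response genes that had one. The match of Vegfa lies in its coding sequence. The x axis is the distance from the annotated start in bases, grey lines are the searched windows (for Vegfa the window with the match), and coloured blocks are matches: the 6 ERSE blocks lie between 162 and 26 bases before the start.

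The deposited values are taken as FPKM, fragment numbers divided by transcript length in kilobases and by the mapped fragments (per 1000000), so that levels can be compared between genes. Dot1l itself was 5.86 FPKM in control and 10.4 in the mutant-labelled library. The value covers the whole gene and checks no deleted exon, so the second library is called the mutant-labelled library throughout. The steps between low values put 1 FPKM in a 2 kb transcript at about 20.5 fragments in control and 18.2 in the other library, assuming that the authors rescaled nothing afterwards. Cell type markers differed widely between the libraries. Of 15 pan-endothelial markers 13 were at least 2-fold lower in the mutant-labelled library (summed 1578 and 366 FPKM) and none was higher, with Pecam1 at 218 and 49.2 and Cdh5 at 227 and 34.4. Of 8 lymphatic markers that passed, 7 were at least 2-fold lower (summed 1513 and 742 FPKM over 9), among them Prox1 at 59.3 and 13.1, while Lyve1 was 526 and 552. Ccl21a was listed at 0 in the mutant-labelled library. All 20 macrophage markers were at least 2-fold higher (summed 69.7 and 6394 FPKM; C1qc listed at 0 in control), as were all 10 mast cell markers (summed 112 and 13066; Fcer1a listed at 0 in control). Fibroblast markers, with 10 of 11 at least 2-fold lower, summed to 4389 and 1016, and all 9 pericyte and smooth muscle markers were at least 2-fold lower (202 and 30.5). Of 8 keratinocyte markers 5 were at least 2-fold lower (175 and 80.0), as was 1 of 5 erythroid markers that passed (315 and 116). Secretory and immune cells also use the genes described here. The part of cell composition in each result below was not tested, and in bulk RNA fewer cells of a type and less RNA per cell cannot be told apart.

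Differences are given on the scale log2(FPKM + 1), mutant-labelled library minus control, and ratios are of the deposited FPKM. Calls of higher or lower need a log2 difference of at least 2-fold, among genes at 1 FPKM or more in at least 1 library. With 1 library per genotype there is no test and no replicate check. The 95% intervals beside ratios are exact binomial intervals on approximate fragment numbers, and cover counting error between these libraries only.

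Genes of the response were mostly equal or higher in the mutant-labelled library. Of the 36 that passed the minimum, 9 were at least 2-fold higher, beside 16.78% of all 13296 genes, and none reached 2-fold lower, beside 15.49% of all genes. The other 27 lay within 2-fold. The 9 were the sensors Ern1 and Atf6, the factor Ddit3, the phosphatase subunit Ppp1r15a, the degradation genes Herpud1, Edem1 and Syvn1, and the folding genes Ero1l and Sdf2l1. The median difference was 0.45, and ran from -0.56 for Phgdh to 4.24 for Ero1l, where that of all genes was 0.00. Values were above 0 for 25 genes and below 0 for 11, against 6670 and 6626 of all genes. Chac1 and Sesn2 passed only through the mutant-labelled library, and Derl3 did not pass. Once both totals were set to 1000000, the median of all genes was -0.33 and that of the response genes 0.10. The counts over all genes became 1900 higher and 3330 lower in place of 2231 and 2060. There Chac1 came past 2-fold higher (1.21) and Atf6 fell short of it (0.93), so that the count of response genes stayed at 9 although Atf6 left it and Chac1 entered. Under that rescaling Sel1l and Pdia3 changed sign, Asns did so under 3 of 4 rescalings, and Manf, close to 0, under the median ratio.

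**Figure D2:**
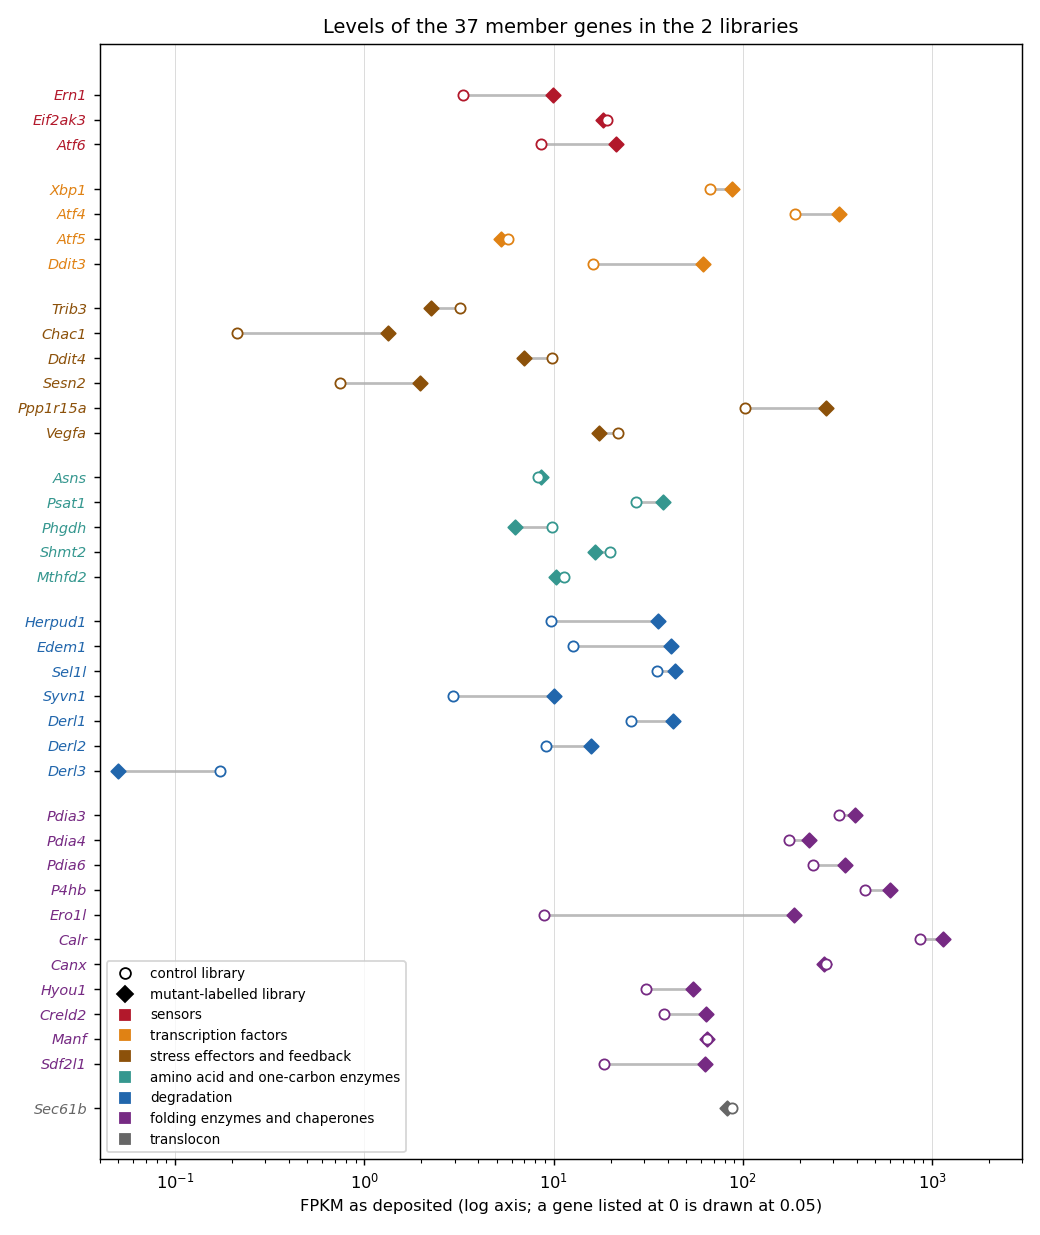
FPKM of the 37 response genes on a log axis, with an open circle for the control library and a filled diamond for the mutant-labelled library, grouped and coloured by role. The widest separation on the log axis among genes above 1 FPKM in both libraries is that of Ero1l, from 8.92 to 187.

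The sensors did not differ alike. Ern1, which encodes the IRE1 kinase and nuclease, was 3.34 FPKM in control and 9.94 in the mutant-labelled library, a ratio of 2.98 (interval 2.55 to 3.48). Atf6, the membrane-bound factor, was 8.60 and 21.4 FPKM, a ratio of 2.49 (2.26 to 2.74). Both were thus higher in the mutant-labelled library, although the difference of Atf6 was 0.93 once both totals were set to 1000000, short of 2-fold. Eif2ak3, which encodes PERK, was 19.3 and 18.2 FPKM, with a ratio of 0.948 and an interval (0.856 to 1.05) that includes 1. In control Eif2ak3 was the highest of the 3 sensors, at 5.77 times the level of Ern1, and in the mutant-labelled library it was 1.84 times that level, below Atf6.

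Among the transcription factors Ddit3 stood out. Ddit3, which encodes CHOP, was 16.1 FPKM in control and 61.6 in the mutant-labelled library, a ratio of 3.82 (3.09 to 4.74) and a log2 difference of 1.87. Atf4, the factor upstream of it, was 188 and 324 FPKM, a ratio of 1.72 (1.64 to 1.80), higher but within 2-fold. Atf4 was the most abundant of the 4 factors in both libraries. The level of Atf4 was 11.7 times that of Ddit3 in control and 5.26 times in the mutant-labelled library, a ratio within each library that no scaling changes. Xbp1, whose spliced form is the factor of the IRE1 branch, was 67.4 and 87.2 FPKM, a ratio of 1.29 (1.20 to 1.39), and spliced and unspliced forms are counted together. Atf5, a relative of Atf4 under similar translational control, was 5.77 and 5.30 FPKM, with an interval that includes 1 (0.677 to 1.26).

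Effectors downstream of ATF4 and CHOP went different ways. Ppp1r15a, which encodes GADD34, the subunit that directs dephosphorylation of eIF2 and closes the feedback loop, was 103 FPKM in control and 276 in the mutant-labelled library, a ratio of 2.68 (2.56 to 2.80). It is also an immediate early gene. Its constitutive relative Ppp1r15b was 31.3 and 55.8 FPKM. Chac1, a glutathione-degrading enzyme that is a target of ATF4, was near the detection limit at 0.214 and 1.33 FPKM, about 3.15 and 17.3 fragments, which gives a ratio of 6.21 with a wide interval of 1.85 to 34.0. Sesn2, an inhibitor of mTORC1 signalling, was 0.748 and 1.97 FPKM, a ratio of 2.64 (1.64 to 4.43), and both stayed within 2-fold on the log2(FPKM + 1) scale. The remaining effectors had lower values in the mutant-labelled library. Trib3, a pseudokinase that restrains ATF4 and CHOP, was 3.20 and 2.26 FPKM, with an interval that includes 1 (0.462 to 1.09). Ddit4, another mTORC1 inhibitor, was 9.83 and 6.99 FPKM (ratio 0.711, 0.547 to 0.920), and the growth factor gene Vegfa 22.0 and 17.4 (ratio 0.790, 0.705 to 0.886). Ddit4 and Vegfa are known to respond to low oxygen as well, as is Ero1l.

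Enzymes of amino acid and folate metabolism, which ATF4 is known to induce, showed no common direction on the deposited scale. None of the 5 was past 2-fold, beside 9005 of all 13296 genes within 2-fold, and the median difference was -0.13. Once both totals were set to 1000000, that median was -0.47, beside -0.33 for all genes. Asns was then at -0.28, and only Psat1 stayed above 0 (0.13). Asns, asparagine synthetase, was 8.27 FPKM in control and 8.57 in the mutant-labelled library (ratio 1.04, 0.815 to 1.31). Of the serine synthesis enzymes, Phgdh was 9.77 and 6.29 FPKM (ratio 0.644, 0.499 to 0.835), while Psat1, the next step of that pathway, was 27.1 and 38.0 (ratio 1.40, 1.26 to 1.55). Adjacent steps therefore lay on opposite sides of 1, each beyond counting error. The mitochondrial folate enzymes Shmt2 (19.7 and 16.6 FPKM) and Mthfd2 (11.3 and 10.3) had slightly lower values, with ratios of 0.842 (0.725 to 0.976) and 0.909 (0.742 to 1.11).

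The degradation genes had the highest median among the roles with more than 3 genes, 1.11 over the 6 that passed. With a pseudocount of 5 that median was 0.78. All 6 were above 0, beside 6670 of all 13296 genes, and Sel1l was not after rescaling to a sum of 1000000 (-0.04). Further degradation genes, on a separate list described below, all lay within 2-fold. Herpud1, a membrane scaffold of the degradation complex, was 9.65 FPKM in control and 35.5 in the mutant-labelled library, a ratio of 3.68 (3.10 to 4.40). Edem1, which extracts misfolded glycoproteins from the folding cycle, was 12.6 and 41.8 FPKM (ratio 3.32, 3.05 to 3.62). Syvn1, the ubiquitin ligase HRD1, was 2.96 and 10.1 FPKM (ratio 3.41, 2.70 to 4.32). These 3 were past 2-fold higher, beside 16.78% of all genes. Sel1l, the partner that stabilises HRD1, was 35.2 and 43.7 FPKM, a ratio of 1.24 (1.17 to 1.32). The ligase and its partner were thus at different proportions, with Sel1l 11.9 times the level of Syvn1 in control and 4.33 times in the mutant-labelled library. The derlins, channel proteins of the complex, differed less. Derl1 was 25.7 and 42.5 FPKM and Derl2 9.13 and 15.8, with ratios of 1.65 and 1.73. Derl3, a derlin of specialised secretory cells, was 0.172 FPKM in control, about 1.98 fragments, and at 0 in the list of the mutant-labelled library, so no fold can be given. An ERSE is thus present both in Syvn1 and in the nearly undetected Derl3.

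**Figure D3:**
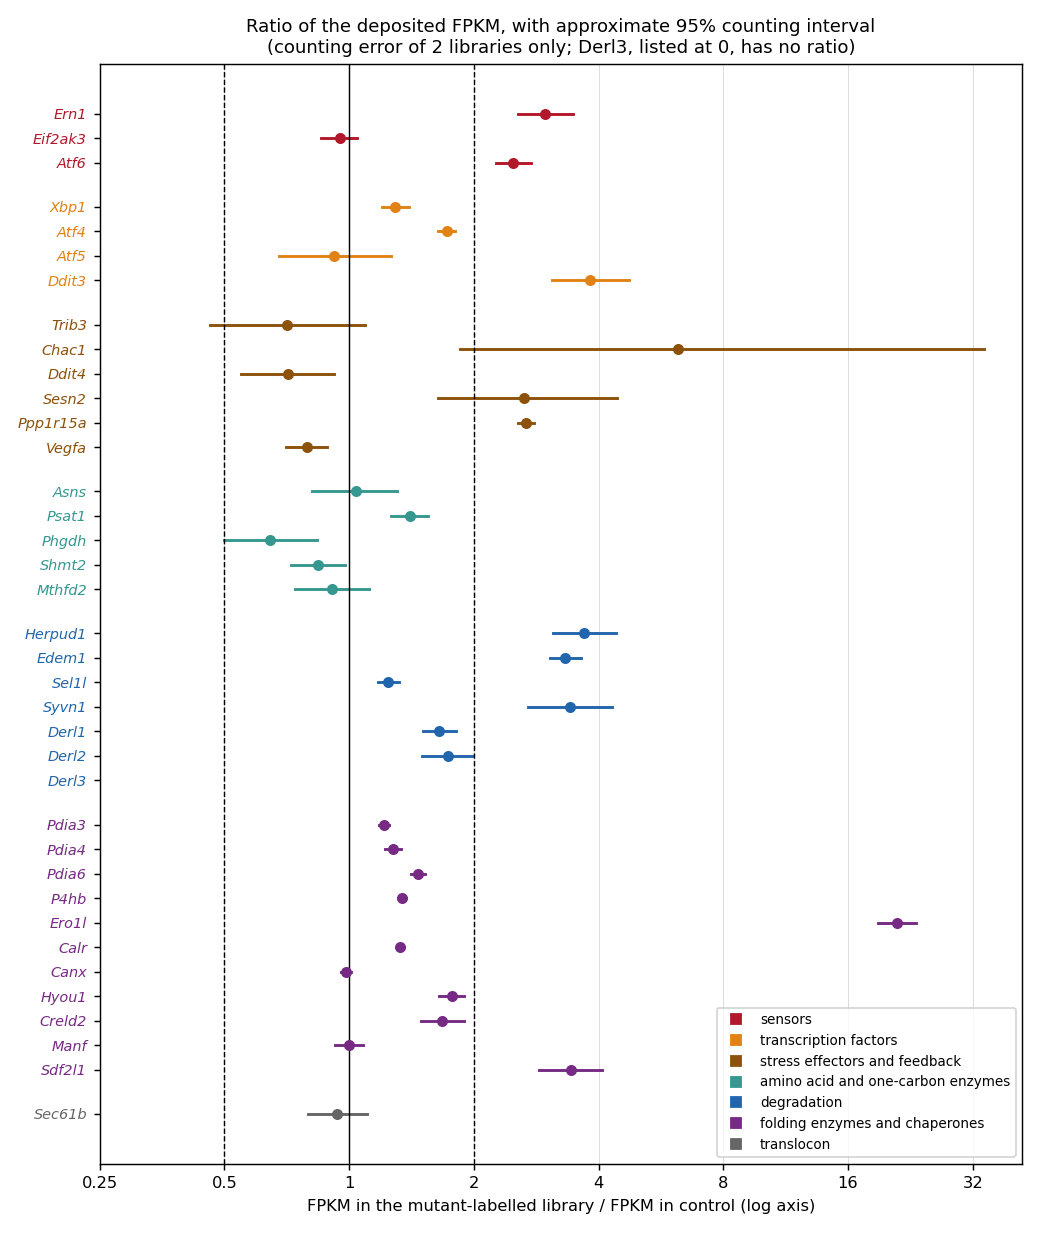
Ratio of FPKM, mutant-labelled library over control, for 36 response genes on a log axis, with bars for the approximate 95% counting interval and dashed lines at 0.5 and 2. Ero1l lies at 21.0, whereas the folding enzymes Pdia3, Pdia4, Pdia6, P4hb and Calr lie between 1.21 and 1.47 with narrow bars.

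The folding group held the most abundant of these genes, and its differences ran from none beyond counting error to the widest of all. Calr, the chaperone calreticulin, was the highest response gene in both libraries, at 863 FPKM in control and 1147 in the mutant-labelled library, rank 46 and rank 56 of 13296 genes. P4hb, a protein disulfide isomerase and a subunit of collagen prolyl hydroxylase, was 444 and 596 FPKM. The disulfide isomerases Pdia3 (321 and 389 FPKM), Pdia6 (235 and 345) and Pdia4 (176 and 224) kept this order in both libraries. Ratios of these 5 genes ran from 1.21 to 1.47, each interval lying above 1. Shifts of this size are near that of the rescaling, where Pdia3 changed sign. Canx, the membrane-bound counterpart of calreticulin, was 274 and 269 FPKM, with a ratio of 0.981 (0.955 to 1.01). Calr was therefore 3.15 times Canx in control and 4.27 times in the mutant-labelled library.

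Ero1l, the oxidase that recharges protein disulfide isomerases, had the largest difference of all 37 genes. It was 8.92 FPKM in control and 187 in the mutant-labelled library, a ratio of 21.0 (18.9 to 23.3) and a log2 difference of 4.24. Its rank among 13296 genes was 6762 in control and 371 in the mutant-labelled library. P4hb, a substrate of the oxidase, stood at 49.8 times the level of Ero1l in control and at 3.19 times in the mutant-labelled library. Its relative Ero1lb, at 1.86 and 3.99 FPKM, was lower than Ero1l in both libraries. Sdf2l1, a partner of chaperone complexes, was the other folding gene past 2-fold, at 18.5 and 63.1 FPKM (ratio 3.42, 2.87 to 4.08). Manf, a secreted stress-induced factor, was 64.7 and 64.6 FPKM (ratio 0.998, 0.923 to 1.08), so that Sdf2l1 came to about the level of Manf in the mutant-labelled library, from 3.51 times below it in control. Hyou1, an exchange factor for the chaperone BiP, was 30.9 and 54.6 FPKM and Creld2, a disulfide isomerase-like protein, 38.2 and 64.1, with ratios of 1.77 (1.65 to 1.89) and 1.68 (1.49 to 1.90). Sec61b, a subunit of the translocon through which new chains enter, was 87.7 and 82.2 FPKM, with an interval that includes 1 (0.795 to 1.10). The ratios within libraries given for pairs of genes were chosen after their values were seen.

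Counting error separated the genes further. The interval of the ratio lay above 1 for 24 of the 37 genes, included 1 for 9 and lay below 1 for 4, namely Ddit4, Vegfa, Phgdh and Shmt2. Of the 24, Chac1 and Sesn2 passed the minimum only through the mutant-labelled library. Intervals were not computed over all genes, so these counts have no share of all genes beside them. The counts hold for the deposited scale only. For all 9 genes that were at least 2-fold higher, the lower bound was above 2. These 9 were called from the same values, so the bound is no separate support. It holds for the deposited scale, and Atf6 fell short of 2-fold once both totals were set to 1000000 (0.93). Genes with an exact ERSE ranged widely. Syvn1 was past 2-fold, Creld2, Pdia6 and Calr had ratios of 1.68, 1.47 and 1.33, Canx was at 0.981 and Derl3 was barely detected. Genes with CARE likewise ranged from Trib3 and Asns, with intervals that include 1, to Herpud1 at 3.68. The ratio of Chac1, 6.21, rests on about 3.15 and 17.3 fragments, and Chac1 passed the minimum only through the mutant-labelled library. Genes past 2-fold with no searched element in their window included Ddit3, Ern1, Edem1, Ero1l and Sdf2l1.

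Other genes of the same pathways, form a list of 102 kept separate from the 37. Of the 100 that passed, 16 reached 2-fold higher, no larger a share than the 16.78% of all genes, and 5 reached 2-fold lower, beside 15.49% of all genes. The median difference was 0.22. The largest group of higher genes was among ATF4 targets, with 9 of the 23 that passed higher and 3 lower, beside the same 16.78% and 15.49%. Of these, Slc7a11 (0.191 and 9.40 FPKM) passed the minimum only through the mutant-labelled library, and Cth (4.07 and 0.468) only through control. Both were named after their values were seen. Genes of the list at 10 FPKM or more in at least 1 library were ranked by difference. Slc7a5 reached 10 FPKM only through the mutant-labelled library, and Pdia5 only through control. The 5 highest were Slc7a5 (5.47 and 210 FPKM), Slc3a2 (16.9 and 230), Atf3 (36.5 and 265), Sec11c (32.1 and 221) and Sqstm1 (99.0 and 571). Slc7a5 and Slc3a2 encode the chains of the large neutral amino acid transporter, Sec11c a signal peptidase subunit and Sqstm1 an autophagy receptor. The lowest were Pdia5 (21.3 and 7.06), Dnajc10 (64.2 and 26.4), Gars (96.1 and 50.8), Mbtps1, the protease that cuts ATF6 first (34.8 and 18.2), and Sec62 (98.5 and 53.6). All 12 aminoacyl-tRNA synthetases lay within 2-fold (median 0.10), as did all 14 further degradation genes (median 0.30), beside 9005 of all 13296 genes. Among chaperones Hspa5, which encodes BiP, was 770 and 1320 FPKM, a ratio of 1.71 (1.69 to 1.74), and Hsp90b1 was 941 and 1093. Dnajb9, a target of XBP1, was 31.4 and 70.0. These 3 chaperones, and Ppp1r15b and Ero1lb above, were named after their values were seen. Once both totals were set to 1000000, the list had 13 higher and 9 lower and a median of -0.13. Beside these, all 13296 genes had 1900 higher and 3330 lower and a median of -0.33 under that rescaling.

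**Figure D4:**
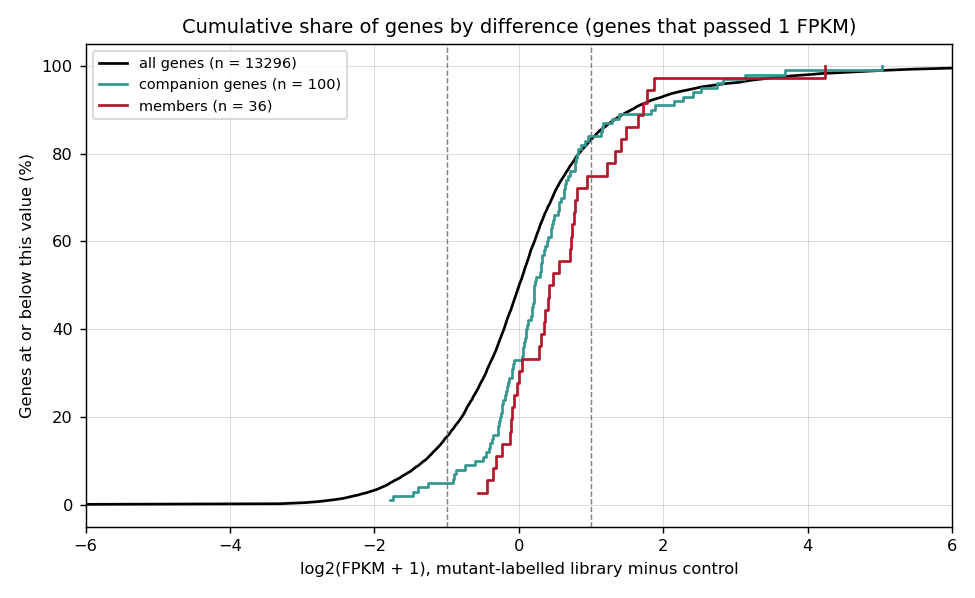
Cumulative share of genes (y axis, percent) by log2 difference (x axis), for all 13296 genes, the 100 companion genes (the separate list of pathway genes) and the 36 response genes that passed 1 FPKM. The curve of the response genes starts at -0.56. At the level of 50% it lies at 0.45, to the right of the other curves. At the level of 95% it lies at 1.87 (Ddit3), to the left of the curve of all genes at 2.46.

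By role, the medians were 1.22 for the 3 sensors, 0.57 for the 4 transcription factors, 0.22 for the 6 effectors, -0.13 for the 5 metabolic enzymes, 1.11 for the 6 degradation genes and 0.42 for the 11 folding genes. Once both totals were set to 1000000, these medians became 0.93, 0.22, 0.04, -0.47, 0.86 and 0.07 in the same order, beside -0.33 for all genes. The effector median rested on Chac1 and Sesn2, which passed only through the mutant-labelled library: over the 4 effectors at 1 FPKM or more in both libraries it was -0.34, of the opposite sign. The medians of the other roles did not move under that minimum. Summed FPKM of the degradation genes were 95.4 and 189, and those of the folding genes 2474 and 3403, which is 0.595% and 0.642% of each library's total. In the same libraries macrophage and mast cell markers had medians of 5.91 and 5.79, and pan-endothelial and fibroblast markers of -2.02 and -2.32. Their part in the role medians was not tested.

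**Figure D5:**
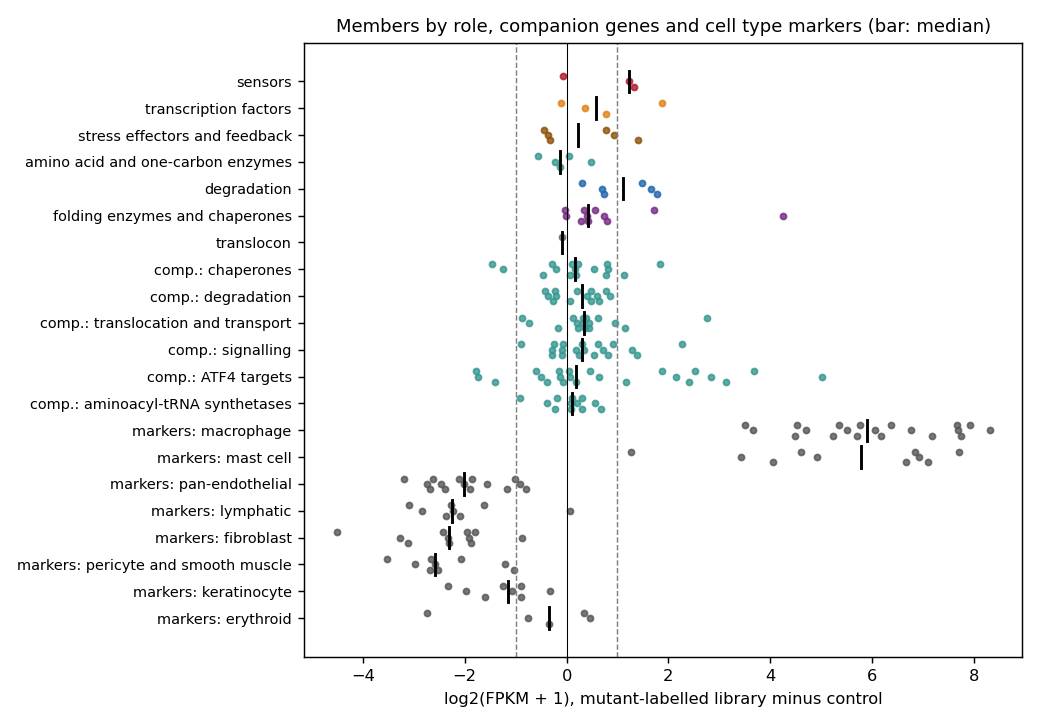
Log2 difference, mutant-labelled library minus control (x axis), of each gene that passed 1 FPKM, by role, companion list ("comp.") and cell type marker list, with a black bar at each median and dashed lines at 2-fold. The response genes lie between -0.56 and 4.24, while macrophage markers lie between 3.51 and 8.31 and 15 pan-endothelial markers are all below 0.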

How the data were processed

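Total RNA of 2 libraries, 1 per genotype, was sequenced. Per the labels' protocols, RNA with an integrity number above 7.0 went into libraries made with the ScriptSeq v2 kit. Each deposited list holds a gene symbol and 1 value, read here as FPKM computed by the authors. The reason is that Cufflinks 2.2.1 and Cuffnorm appear in the submitters' processing notes, beside STAR 2.5.2b, R 3.3.2 and build mm9. No source used here gives the annotation or any scaling between the libraries, and promoter coordinates are on GRCm38.p6, another build.

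Differences used a pseudocount of 1, a minimum of 1 FPKM in at least 1 library and a 2-fold threshold (Python 3.11.15, numpy 2.4.6, pandas 2.3.3, scipy 1.17.1), and the calculation was tested on simulated data. Depth was the best of 500 scanned steps at which FPKM times length gave whole fragments (within 0.1, up to 5 fragments, at least 100 values, an assumed fragment length of 200 nt), over genes with a single GENCODE M21 transcript of at least 2500 nt. At that step 83.0% of 159 low values were whole in control, and 76.0% of 175 in the other. Approximate fragments per gene used the longest coding transcript, and reads without molecular identifiers are not independent molecules. Whole fragments could be read only for such genes, and a count model was therefore not fitted. A value of exactly 0 (8138 rows in control, 7943 in the other) may be a failed estimate.

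The genes and lists were chosen with earlier results of these data known. Named genes are Dot1l, the 37, the 5 highest and 5 lowest companion genes at 10 FPKM or more in at least 1 library, and fixed markers. Others are said to be named after their values were seen. Of the fixed markers, Csf1r, Adgre1, C1qa, Mcpt4, Col1a1, Col3a1, Rgs5, Krt14 and Hba-a1 are covered by the sums of their lists. Alternatives were other pseudocounts, minimums, thresholds and 4 rescalings.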

Additional observations from a re-analysis of the deposited data

How the results depend on the processing

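No paired analysis was possible because there is a single library on each side, which also means that none could be left out. The count of 9 response genes at least 2-fold higher was 16 at 1.5-fold and 5 at 3-fold, and none was lower under any pseudocount, minimum, rescaling or threshold tried. With a pseudocount of 5, Ern1, Atf6 and Syvn1 came within 2-fold (0.84, 0.96 and 0.92). Ddit3, Ppp1r15a, Herpud1, Edem1, Ero1l and Sdf2l1 stayed past 2-fold under every pseudocount and rescaling. With a pseudocount of 0.1, Chac1 and Sesn2 passed 2-fold higher (2.19 and 1.29), and Derl3, under the minimum, was at -1.45. Chac1 also passed with a sum of 1000000 (1.21, where Atf6 at 0.93 did not) and with small RNAs left out (1.29). Summed FPKM over all rows were 415537 in control and 530294 in the mutant-labelled library. Small RNAs made up 0.964% and 8.27% of these sums. The median of 0.45 became 0.10 with a sum of 1000000, 0.21 with that sum and small RNAs left out, and 0.28 with the same upper quartile. For the companion genes the median of 0.22 became -0.13, -0.019 and 0.056 in that order, the 5 lower became 9, 8 and 8, and 2 with a pseudocount of 5. At 1.5-fold 31 were higher and 10 lower, and at 3-fold 2 were lower. Over all genes, the 2231 higher became 1323 (pseudocount 5), 3464 (1.5-fold) and 1298 (3-fold), and the 2060 lower became 921, 3450 and 906, or 3330 with a sum of 1000000. The median of all genes moved to -0.23 (small RNAs left out) and -0.14 (upper quartile). With a minimum of 1 FPKM in both libraries, added after seeing the data, the medians were 0.42 for the response genes and 0.22 for the companion genes. Chac1, Sesn2 and Derl3 rest on few fragments.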
